A study of Mus musculus with 6 samples.

Results

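The renin-angiotensin-aldosterone components examined here were 7 genes, chosen by their names in the deposited count table: Agt, Ace, Agtr1a, Mme, Nr3c2, Atp6ap2 and Hsd11b1. They were 7 of the 54532 genes in that table, and all 7 were among the 14774 genes with enough counts to be tested. RNA of the left ventricle was measured by poly-A RNA-seq in 3 TG and 3 NTG mice 4 weeks after aortic banding (AB), a constriction of the aorta that loads the heart with pressure, with 1 library per heart. TG hearts carried the genotype HINT2CTG-Myh6Cre, in which a HINT2 transgene behind the CAG promoter is switched on in cardiomyocytes by a tamoxifen-dependent Cre under the Myh6 promoter, and these mice received tamoxifen at 5 mg/kg per day for 7 days. NTG hearts carried the genotype C57BL/6J. Whether NTG mice carried Cre or received tamoxifen is not given in the sources used here, so the transgene, Cre and the drug cannot be told apart in this comparison. All mice were males, operated on at 8 to 10 weeks of age, and both groups had the banded aorta, so the comparison asks how cardiac HINT2 excess was reflected in the RNA of these genes under pressure load and holds no heart without AB.

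In this system renin cuts angiotensinogen, the product of Agt, to angiotensin I, and angiotensin-converting enzyme, the product of Ace, turns that into angiotensin II. Angiotensin II acts mainly through the receptor encoded by Agtr1a and drives the adrenal gland to make aldosterone, which binds the mineralocorticoid receptor encoded by Nr3c2. In the heart both receptors are known for their part in hypertrophy and fibrosis, and blockers of the system are standard drugs for heart failure. Much of the renin and aldosterone that reach the heart come from the kidney and the adrenal gland through the blood.

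The 250 bases before the first-listed RefSeq start site (GRCm38.p6) of Ace, Atp6ap2, Agt and Nr3c2 are shown because these are the gene with the highest RNA level of the 7, the gene whose groups did not overlap, the precursor and the hormone receptor of the system. RefSeq start sites need not be the gene ends of the deposited table, and the window of Nr3c2 lies inside the gene as deposited. They lie at chr11:105967698-105967947 on the plus strand for Ace, chrX:12587509-12587758 on the plus strand for Atp6ap2, chr8:124569707-124569956 on the minus strand for Agt and chr8:76902080-76902329 on the plus strand for Nr3c2. Capitals mark 3 motifs that were searched. The GC box GGGCGG and the letters TGTTCT were searched on both strands, and the TATA box TATAAA on the strand of the gene. The letters TGTTCT are the core of the elements that corticosteroid receptors bind.
Ace: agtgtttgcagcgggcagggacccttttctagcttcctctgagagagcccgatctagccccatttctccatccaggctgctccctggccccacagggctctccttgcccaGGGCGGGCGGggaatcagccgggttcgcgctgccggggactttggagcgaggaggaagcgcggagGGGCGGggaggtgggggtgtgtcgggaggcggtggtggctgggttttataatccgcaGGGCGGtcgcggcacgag
Atp6ap2: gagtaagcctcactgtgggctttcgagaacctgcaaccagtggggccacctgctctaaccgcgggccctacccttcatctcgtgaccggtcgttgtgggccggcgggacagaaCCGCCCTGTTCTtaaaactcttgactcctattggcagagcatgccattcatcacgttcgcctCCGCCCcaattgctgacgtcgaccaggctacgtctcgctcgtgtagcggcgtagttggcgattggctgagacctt
Agt: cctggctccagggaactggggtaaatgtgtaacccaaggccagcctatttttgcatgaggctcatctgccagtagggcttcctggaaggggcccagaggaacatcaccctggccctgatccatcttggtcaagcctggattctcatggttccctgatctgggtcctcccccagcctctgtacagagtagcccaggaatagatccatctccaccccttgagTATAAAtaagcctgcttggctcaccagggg
Nr3c2: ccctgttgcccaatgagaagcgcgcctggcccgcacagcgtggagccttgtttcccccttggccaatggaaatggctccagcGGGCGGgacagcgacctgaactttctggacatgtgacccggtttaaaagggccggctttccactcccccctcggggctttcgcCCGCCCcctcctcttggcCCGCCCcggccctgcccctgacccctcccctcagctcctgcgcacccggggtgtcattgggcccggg

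RefSeq promoter entries were found for 6 of the 7 genes, and Agtr1a had none. Agt held TATAAA starting 30 bases before its start site and no GC box. Ace held GGGCGG at 4 places before this start site, the first 2 of which share bases, and at 0 places before its second RefSeq start site (window chr11:105974939-105975188), and Nr3c2 held it at 3 places. Atp6ap2 held GGGCGG at 2 places and TGTTCT at 1 place, which touches a GC box on the other strand. Of 32851 promoter windows of the same length, 32.7% held GGGCGG, 7.59% held TATAAA and 16.1% held TGTTCT. These matches describe letters in a window and carry no measurement of binding.

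The libraries held 14863568 to 17581220 counts on genes in NTG and 14944465 to 17235802 in TG. Hint2, the gene that was overexpressed, had 793, 828 and 859 counts in the 3 TG hearts and 545 and 559 in NTG 2 and NTG 3, and the library labelled NTG 1 stood apart with 12. With all 6 libraries Hint2 had a log2 fold change of 1.33 (95% interval -0.74 to 3.39) and was not called (edgeR adjusted p = 0.433, DESeq2 adjusted p = 0.575). It was 0.77 without NTG 1 (edgeR adjusted p = 0.0212). The fold changes of the 7 genes below are therefore given with and without that library. Summed over 6 cardiomyocyte markers, CPM ran from 11500 to 19800 in NTG and from 18800 to 23500 in TG, and 1 of these markers was higher in TG at an unadjusted p under 0.05. The sum over 6 markers of activated fibroblasts was 1880 to 5610 in NTG and 387 to 1320 in TG, and 4 of these 6 markers were lower in TG at an unadjusted p under 0.05. The sum over 6 general fibroblast markers was 2330 to 3410 CPM in NTG and 1520 to 2100 CPM in TG, with 3 of 6 lower at that threshold. The sum over 5 red blood cell genes was 1310 to 2250 CPM in NTG and 762 to 908 CPM in TG, and all 5 were lower at that threshold. The atrial genes Myl7 and Sln, with 0 to 3 counts in NTG 2 and NTG 3, reached 1044 and 401 counts in TG 3, 286 and 122 in NTG 1, and 135 and 72 in TG 2, although all libraries are labelled as left ventricle. The sum over all 6 atrial markers, most of it Nppa, which a loaded ventricle also expresses, was 822 to 1400 CPM in NTG and 178 to 897 CPM in TG, with Nppa at 268 CPM and Bmp10 at 0 counts in TG 3. In whole tissue, fewer cells of a type and less RNA per cell cannot be told apart.

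With all 6 libraries, none of the 7 genes was called by edgeR's quasi-likelihood test, where a call needs both a log2 fold change of more than 0.5 up or down and a Benjamini-Hochberg adjusted p below 0.05, and 0.00% of all genes tested were called. DESeq2 also called 0 of the 7, against 3.95% of all genes. At an unadjusted p under 0.05, Mme and Agtr1a were higher in TG, against 8.83% of all genes in that direction, and Ace and Atp6ap2 were lower, against 9.76%. These 4 of 7 genes stood beside 18.6% of all genes in either direction. The count was 0 of 7 without NTG 2 (10.4% of all genes) and 0 of 7 without TG 1 (10.6%). The TG and NTG hearts did not overlap for 1 of the 7, Atp6ap2, while 23.5% of all genes had groups that did not overlap. The median log2 fold change was 0.33 over the 7 genes, 4 of which were higher and 3 lower in TG, and -0.008 over all genes tested. The p-values set the difference between TG and NTG against the spread between hearts within each group, which edgeR moderates over all genes.

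**Figure D1:**
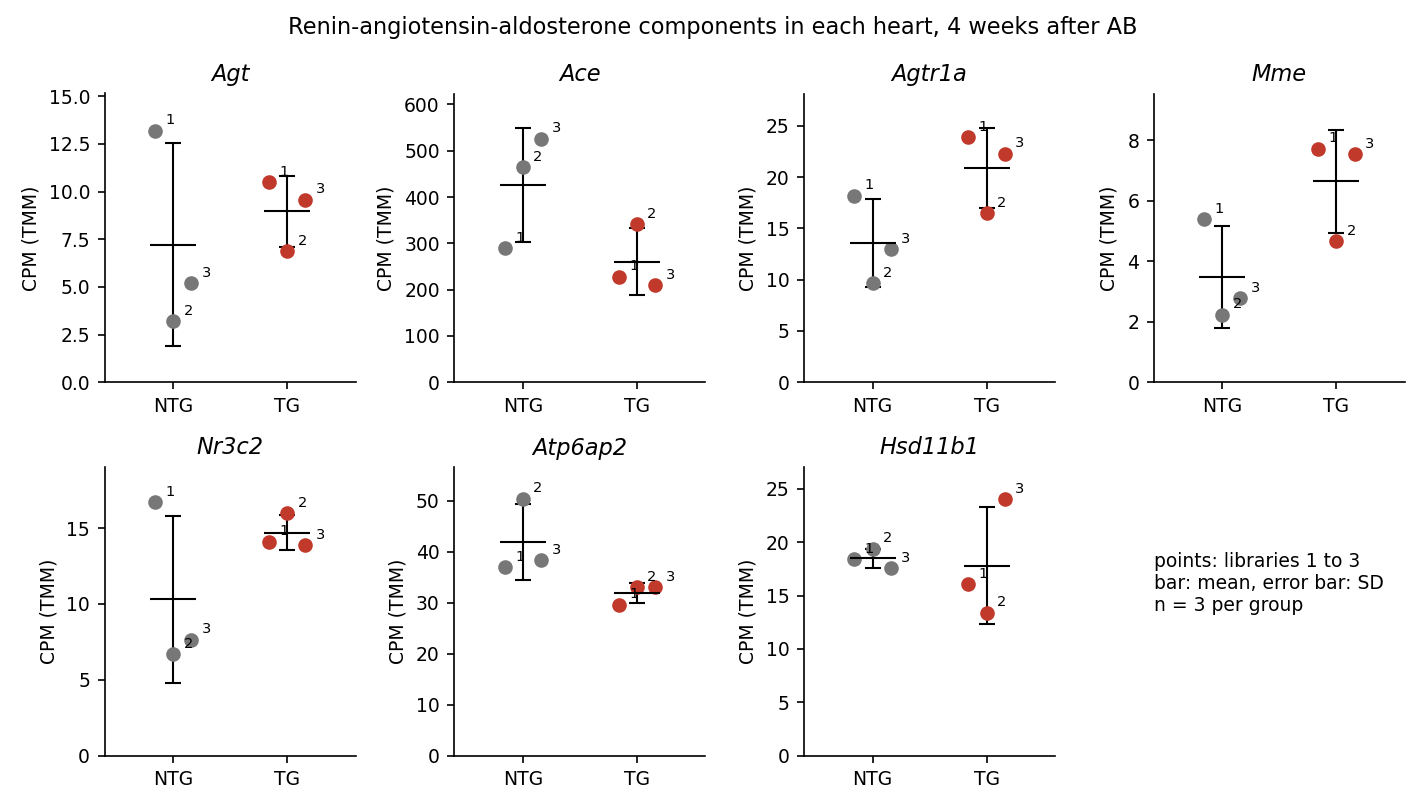
CPM of the 7 genes in each of the 3 NTG (grey) and 3 TG (red) hearts on linear axes from 0, with the number of each library, the mean as a horizontal bar and the SD as error bar. NTG 1 lies on the TG side of NTG 2 and NTG 3 for 6 of the 7 genes, and Atp6ap2 is the gene without overlap, with TG at 29.6 to 33.1 CPM and NTG at 36.9 to 50.4 CPM.

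Without the library labelled NTG 1, TG was compared with NTG 2 and NTG 3, and edgeR called 4 of the 7 genes, against 5.52% of all genes. Mme, Agtr1a and Nr3c2 rose and Ace fell in TG in that comparison. DESeq2 called 5 of 7, with Agt added, against 11.7% of all genes. At an unadjusted p under 0.05 stood 6 of the 7 genes, against 27.0% of all genes. The groups did not overlap for 6 of the 7, with 4 higher in TG, against 23.0% of all genes, and 2 lower, against 23.6%. NTG 1 lay beyond both other NTG hearts on the side of TG for 6 of the 7 genes (85.7%) and for 9203 of the 14774 genes tested (62.3%). Mitochondrially encoded genes took 19.2% of the counts in NTG 1, 13.4% and 14.3% in NTG 2 and NTG 3, and 16% to 21.5% in TG. What sets NTG 1 apart, and the part of this share in the values, was not tested.

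**Figure D2:**
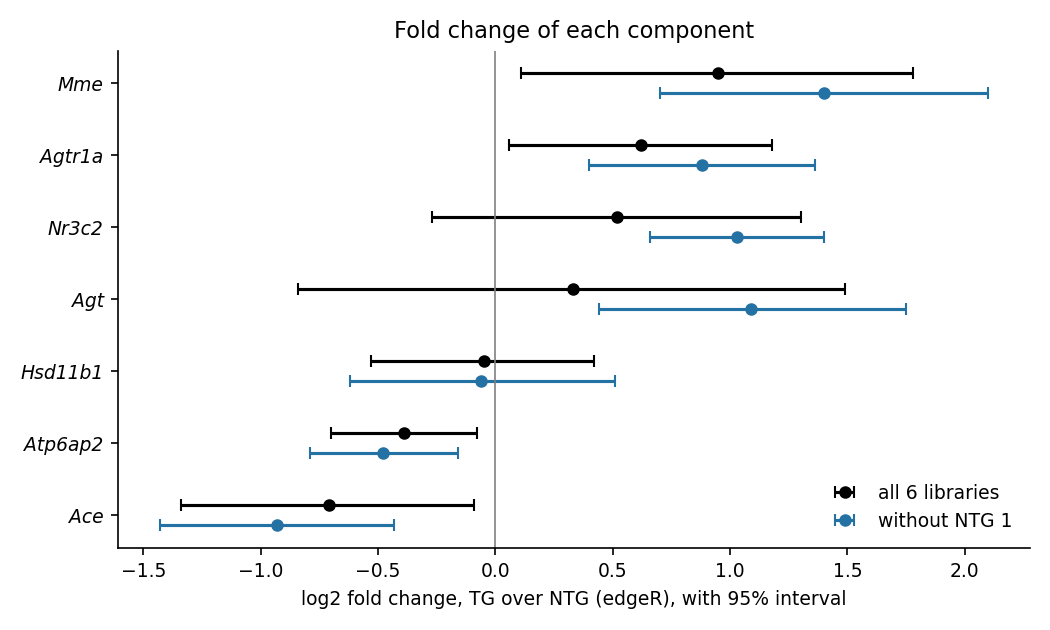
Log2 fold change of TG over NTG with its 95% interval from edgeR for each of the 7 genes, with all 6 libraries in black and without NTG 1 in blue. Without NTG 1 the intervals of Mme, Agtr1a, Nr3c2 and Agt lie above 0 and those of Atp6ap2 and Ace below it, and Hsd11b1 spans 0 in both.

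At the head of the cascade, Agt RNA was found in all 6 hearts, unevenly in NTG. Agt (ENSMUSG00000031980, chr8:124556534-124569706, minus strand) encodes angiotensinogen, the only known precursor of angiotensin peptides, and is made mainly in the liver. Its level was 13.2, 3.19 and 5.21 CPM in NTG 1, 2 and 3 and 10.5, 6.88 and 9.57 CPM in TG 1, 2 and 3. NTG 1 was the highest of all 6 hearts and NTG 2 and NTG 3 were the lowest, so that the 3 TG hearts lay inside the NTG range. The mean was 8.97 ± 1.86 CPM in TG and 7.21 ± 5.32 CPM in NTG (SD, n = 3 each). The log2 fold change was 0.33 (SE 0.493, 95% interval -0.84 to 1.49, edgeR adjusted p = 0.746). Without NTG 1 it was 1.09 (95% interval 0.44 to 1.75, edgeR adjusted p = 0.0603), and without NTG 2 it was -0.04. The lowest library held 60 counts, at which counting error alone has a CV of 12.9%.

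Renin itself left no reads. Ren1, the renin gene, had 0 counts in each of the 6 libraries, where 3 counts would be 0.159 to 0.216 CPM. Its partner in tissue, the (pro)renin receptor, is encoded by Atp6ap2 (ENSMUSG00000031007, chrX:12587801-12617049, plus strand), whose product binds renin and prorenin and also serves the proton pump of lysosomes. Atp6ap2 stood at 36.9, 50.4 and 38.3 CPM in NTG 1, 2 and 3 and at 29.6, 33.1 and 33 CPM in TG 1, 2 and 3. Each TG heart was below each NTG heart, and NTG 2 was the highest. The mean was 31.9 ± 2.01 CPM in TG and 41.9 ± 7.41 CPM in NTG (SD, n = 3 each), a log2 fold change of -0.39 (SE 0.135, 95% interval -0.7 to -0.08). Its edgeR adjusted p was 0.215, and without NTG 1 the log2 fold change was -0.48 with an edgeR adjusted p of 0.0732. Without NTG 2 the log2 fold change was -0.24 (95% interval -0.48 to 0.01, edgeR adjusted p = 0.482). The largest per-length level among other enzymes able to cut angiotensinogen was that of Ctsd, which encodes the lysosomal protease cathepsin D. Ctsd had 748, 759 and 809 CPM in NTG and 592, 647 and 587 CPM in TG, with a log2 fold change of -0.34 (edgeR adjusted p = 0.215, DESeq2 adjusted p = 0.0273). Ctsd too was lower in each TG heart than in each NTG heart.

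Among the enzymes that process angiotensin, Ace was lower and Mme was higher in TG by fitted fold change. Ace (ENSMUSG00000020681, chr11:105967945-105989964, plus strand) encodes the enzyme that makes angiotensin II and breaks down bradykinin, and sits mainly on endothelial cells. Its level was 289, 464 and 526 CPM in NTG 1, 2 and 3 and 228, 342 and 209 CPM in TG 1, 2 and 3. NTG 2 and NTG 3 were above all TG hearts, while NTG 1 fell between TG 1 and TG 2. The mean was 260 ± 72.1 CPM in TG and 426 ± 123 CPM in NTG (SD, n = 3 each). The log2 fold change was -0.71 (SE 0.267, 95% interval -1.34 to -0.09, edgeR adjusted p = 0.23, DESeq2 adjusted p = 0.0888). Without NTG 1 it was -0.93 (95% interval -1.43 to -0.43, edgeR adjusted p = 0.0489). It was -0.65 without NTG 2 (95% interval -1.46 to 0.16, edgeR adjusted p = 0.531). Summed over 6 endothelial markers, CPM was 1480 to 1710 in NTG and 1580 to 1740 in TG. At an unadjusted p under 0.05, 2 of these markers, Kdr and Egfl7, were higher in TG and none lower. The other log2 fold changes were 0.23 for Tie1, 0.03 for Cdh5, -0.11 for Pecam1 and -0.19 for Emcn. Both fibroblast sums were lower in TG, as Ace was, and their part in the values of Ace and of the genes that were higher in TG was not tested.

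Mme (ENSMUSG00000027820, chr3:63241537-63386030, plus strand) encodes neprilysin, which degrades natriuretic peptides and turns angiotensin I into angiotensin-(1-7). It was the least counted of the 7 genes, with 79, 42 and 48 counts in NTG 1, 2 and 3 and 107, 82 and 122 counts in TG 1, 2 and 3. As CPM these were 5.39, 2.23 and 2.78 in NTG and 7.72, 4.66 and 7.53 in TG. NTG 1 was above TG 2, and the other two NTG hearts were below all TG hearts. The mean was 6.64 ± 1.71 CPM in TG and 3.47 ± 1.69 CPM in NTG (SD, n = 3 each), a log2 fold change of 0.95 (SE 0.363, 95% interval 0.11 to 1.78, edgeR adjusted p = 0.231). Without NTG 1 it was 1.4 (95% interval 0.7 to 2.1, edgeR adjusted p = 0.0396). It was 0.7 without NTG 2 (95% interval -0.11 to 1.52, edgeR adjusted p = 0.514). At 42 counts the CV from counting alone is 15.4%.

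The ratio of Ace to Mme RNA joins the enzyme that makes angiotensin II and one that diverts its precursor. It was 116, 448 and 409 in NTG 1, 2 and 3 and 64.1, 159 and 60.5 in TG 1, 2 and 3, as levels per length. NTG 1 lay below TG 2, and NTG 2 and NTG 3 were the highest. The mean log2 ratio was 6.41 ± 0.784 in TG and 8.11 ± 1.09 in NTG (SD, n = 3 each), a difference of -1.7 (exact permutation test over the 6 hearts, two-sided, p = 0.2, where the smallest p that 3 against 3 allows is 0.1). Without NTG 1 the difference was -2.33 (exact permutation p = 0.1, the smallest that 3 against 2 allows). Over the 2 ratios tested here, the other being that of the corticosteroid receptors, the Benjamini-Hochberg adjusted exact p was 0.4 for each.

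Of 10 other angiotensin-trimming peptidases tested, Anpep alone was at an unadjusted p under 0.05, beside 18.6% of all genes. Anpep, aminopeptidase N, which cuts angiotensin III, had 21.2, 26.2 and 19.8 CPM in NTG and 14.9, 19.2 and 16.2 CPM in TG, with a log2 fold change of -0.42 (edgeR adjusted p = 0.221). The TG hearts were all below the NTG hearts. Lnpep, which encodes insulin-regulated aminopeptidase and had the highest per-length level of these 10, was at 205, 234 and 204 CPM in NTG and 192, 180 and 193 CPM in TG, a log2 fold change of -0.19 (edgeR adjusted p = 0.345). The median log2 fold change of the 10 was -0.1.

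Agtr1a was the angiotensin II receptor gene with reads. Agtr1a (ENSMUSG00000049115, chr13:30336441-30382867, plus strand) encodes the receptor through which angiotensin II raises blood pressure and promotes cardiac growth. It was at 18.2, 9.66 and 13 CPM in NTG 1, 2 and 3 and at 23.9, 16.5 and 22.3 CPM in TG 1, 2 and 3. NTG 1 was above TG 2, and NTG 2 and NTG 3 were below all TG hearts. The mean was 20.9 ± 3.92 CPM in TG and 13.6 ± 4.28 CPM in NTG (SD, n = 3 each). The log2 fold change was 0.62 (SE 0.243, 95% interval 0.06 to 1.18, edgeR adjusted p = 0.233). Without NTG 1 it was 0.88 (95% interval 0.4 to 1.36, edgeR adjusted p = 0.0493). It was 0.42 without NTG 2 (95% interval -0.06 to 0.91, edgeR adjusted p = 0.511). The cardiomyocyte marker sum was lowest in NTG 2, at 11500 CPM, the heart in which Agtr1a, Mme, Nr3c2 and Agt were also lowest. The sum over 6 smooth muscle and pericyte markers was likewise lowest in NTG 2, at 1080 CPM. It was 1320 and 1400 CPM in the other NTG hearts and 1210 to 1470 CPM in TG. At an unadjusted p under 0.05, 2 of the 6, Acta2 and Myh11, were higher in TG. Tagln, Cspg4 and Kcnj8 had log2 fold changes of -0.61, -0.29 and -0.03, and Rgs5 had 0.04. The part of either list in these values was not tested.

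The second mouse gene for this receptor type, Agtr1b, had 0 counts in all 6 libraries, and so did Agtr2, which encodes the receptor that opposes Agtr1a. Mas1, the receptor of angiotensin-(1-7), had 0, 4 and 0 counts in NTG and 6, 9 and 6 counts in TG, too few to be tested. Of 7 receptor partners that were tested, Gna11 was higher and Arrb1 lower in TG at an unadjusted p under 0.05, which is 28.6% of them, beside 18.6% of all genes. Gna11, a G protein subunit that couples the receptor to phospholipase C, was at 92.3, 74.8 and 91.2 CPM in NTG and 110, 106 and 111 CPM in TG, with a log2 fold change of 0.34 (edgeR adjusted p = 0.203). The groups did not overlap for Gna11. Arrb1 encodes the arrestin that uncouples receptors from G proteins. It was at 63.6, 119 and 116 CPM in NTG and 53.2, 71.9 and 60.5 CPM in TG, with a log2 fold change of -0.69 (edgeR adjusted p = 0.224). NTG 1 lay among the TG hearts for Arrb1, and without NTG 1 its log2 fold change was -0.93 (edgeR adjusted p = 0.0177).

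On the steroid side, Nr3c2 was even across the TG hearts and uneven across the NTG hearts. Nr3c2 (ENSMUSG00000031618, chr8:76899442-77245012, plus strand) encodes the mineralocorticoid receptor, which in heart muscle binds both aldosterone and glucocorticoids. It was at 16.7, 6.69 and 7.64 CPM in NTG 1, 2 and 3 and at 14.1, 16 and 13.9 CPM in TG 1, 2 and 3. NTG 1 was above all TG hearts and the other two NTG hearts were below them. The mean was 14.7 ± 1.14 CPM in TG and 10.3 ± 5.5 CPM in NTG (SD, n = 3 each), a log2 fold change of 0.52 (SE 0.334, 95% interval -0.27 to 1.3, edgeR adjusted p = 0.426). Without NTG 1 it was 1.03 (95% interval 0.66 to 1.4, edgeR adjusted p = 0.021), the smallest adjusted p of the 7 genes in that comparison. It was 0.28 without NTG 2 (edgeR adjusted p = 0.766) and 0.34 without NTG 3 (edgeR adjusted p = 0.686).

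The related glucocorticoid receptor gene Nr3c1 was at 105 to 111 CPM in NTG and 98.2 to 117 CPM in TG, with a log2 fold change of -0.04 (edgeR adjusted p = 0.868). The ratio of Nr3c2 to Nr3c1 levels per length was 0.18, 0.0734 and 0.0794 in NTG 1, 2 and 3 and 0.165, 0.157 and 0.16 in TG 1, 2 and 3. On the log2 scale it was -2.63 ± 0.0363 in TG and -3.3 ± 0.715 in NTG (SD, n = 3 each), a difference of 0.67 (exact permutation p = 0.4, smallest possible 0.1). It was 1.08 without NTG 1 (exact permutation p = 0.1, the smallest possible) and 0.43 without NTG 2 (exact permutation p = 0.5). The 3 TG hearts stood close together between NTG 1 and the other NTG hearts.

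Hsd11b1 gave the value nearest to no difference among the 7 genes. Hsd11b1 (ENSMUSG00000016194, chr1:193221634-193264075, minus strand) encodes the enzyme that regenerates active glucocorticoid inside cells, a ligand of both corticosteroid receptors. It was at 18.4, 19.4 and 17.6 CPM in NTG 1, 2 and 3 and at 16.1, 13.4 and 24 CPM in TG 1, 2 and 3. The NTG hearts lay inside the TG range, with TG 3 the highest and TG 2 the lowest. The mean was 17.8 ± 5.48 CPM in TG and 18.5 ± 0.873 CPM in NTG (SD, n = 3 each), a log2 fold change of -0.05 (SE 0.205, 95% interval -0.53 to 0.42, edgeR adjusted p = 0.91). Without NTG 1 it was -0.06 (95% interval -0.62 to 0.51). In TG 3 the fat cell gene Adipoq had 16 counts, against 0 to 2 in the other hearts, and Cfd had 92, against 6 to 24, and Plin1 had 13, against 0 to 8, while Lep had 0 counts in every heart. The sum over 6 fat cell markers was 22.7 to 27.4 CPM in NTG and 24.3 to 31.3 CPM in TG, with Cidea at 23.8 CPM in TG 3 and at 22.3 to 29.7 CPM in the other hearts. The part of such cells in the Hsd11b1 value of TG 3 was not tested. Hsd11b1 overlaps Lamb3 on the opposite strand, which held 79 to 113 counts per library. Whether the counting used strand is not given in the sources used here.

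Hsd11b2, which inactivates glucocorticoid and so guards the mineralocorticoid receptor in the kidney, had 3 to 8 counts per library. Cyp11b2, aldosterone synthase, had 0 counts in every library. H6pd encodes the enzyme that supplies Hsd11b1 with its reduced cofactor. It was at 52.6, 103 and 71.4 CPM in NTG and 44, 42.8 and 47.3 CPM in TG, with a log2 fold change of -0.76 (edgeR adjusted p = 0.203, DESeq2 adjusted p = 0.0381). All TG hearts were below all NTG hearts for H6pd, which DESeq2 called with all 6 libraries as 1 of 35 genes of the wider pathway list, beside 3.95% of all genes. Its log2 fold change was -0.96 without NTG 1, where edgeR called it (adjusted p = 0.0228), and -0.47 without NTG 2, where edgeR did not (adjusted p = 0.428). Star, which carries cholesterol into mitochondria for steroid synthesis, was at 9.9, 45.7 and 21.2 CPM in NTG and 6.13, 8.76 and 3.7 CPM in TG, with a log2 fold change of -2.05 (edgeR adjusted p = 0.203). The groups did not overlap for Star either, and NTG 2 was the highest. Without NTG 1 the log2 fold change of Star was -2.43 (edgeR adjusted p = 0.0535, DESeq2 adjusted p = 5.2e-07), and without NTG 2 it was -1.33 (edgeR adjusted p = 0.447).

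Of 7 genes listed here as induced through corticosteroid receptors, Lcn2 and Tsc22d3 were lower in TG at an unadjusted p under 0.05. These 2 of 7 stood beside 9.76% of all genes in that direction, and 0 were higher. Lcn2, lipocalin, which myeloid cells also make, was at 4.23, 64 and 14.4 CPM in NTG and 2.96, 2.22 and 5.62 CPM in TG, with a log2 fold change of -2.94 (edgeR adjusted p = 0.217). NTG 1 lay among the TG hearts for Lcn2, and its log2 fold change was -3.45 without NTG 1 and -1.38 without NTG 2, the heart with the highest value. Tsc22d3, a glucocorticoid-induced leucine zipper protein, was at 280, 288 and 291 CPM in NTG and 218, 207 and 271 CPM in TG, with a log2 fold change of -0.3 (edgeR adjusted p = 0.253). Sgk1, a kinase that aldosterone induces, was at 270 ± 61 CPM in NTG and 319 ± 77.1 CPM in TG (SD, 3 hearts each), groups that overlapped, with a log2 fold change of 0.24 (edgeR adjusted p = 0.569). The macrophage marker sum was 675 to 1180 CPM in NTG and 458 to 646 CPM in TG, with 3 of 6 markers lower at an unadjusted p under 0.05, and its part in these values was not tested. Of 6 genes for the glucocorticoid receptor and the chaperones of these receptors, 0 were at an unadjusted p under 0.05, beside 18.6% of all genes, and the highest per length, Hsp90ab1, had a log2 fold change of 0.24 (edgeR adjusted p = 0.455) with all libraries and 0.39 (edgeR adjusted p = 0.167) without NTG 1.

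**Figure D3:**
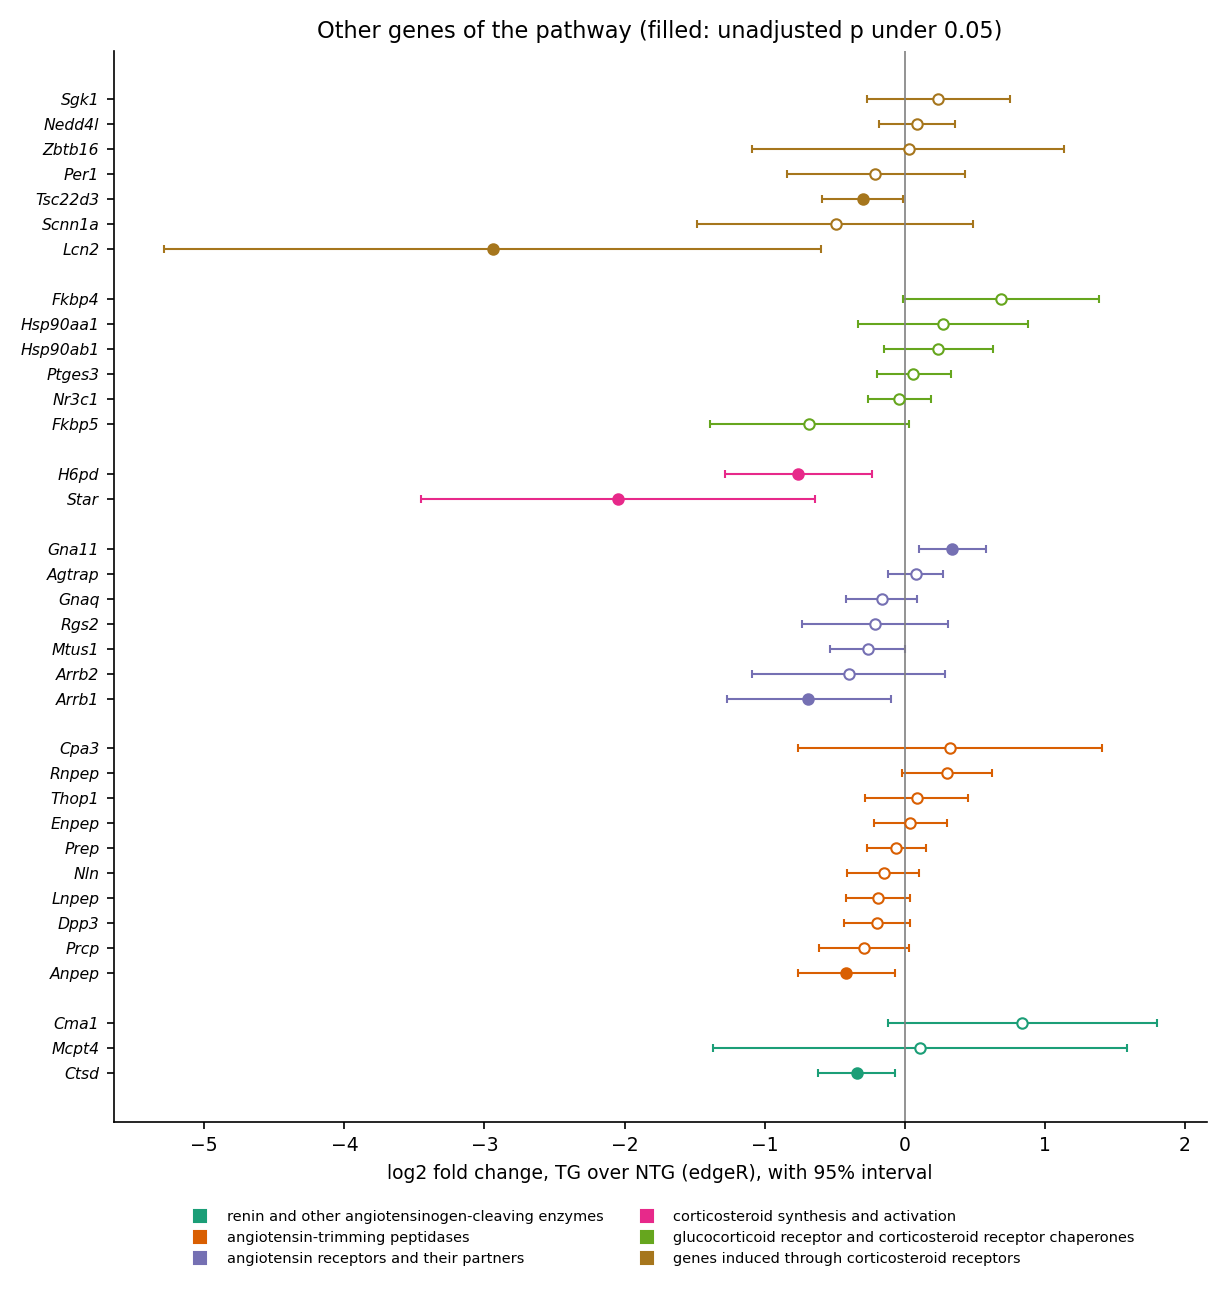
Log2 fold change of TG over NTG with its 95% interval from edgeR for the 35 other pathway genes that were tested, coloured by role, with filled points at an unadjusted p under 0.05. Gna11 is the filled point above 0, 7 filled points lie below 0, and Lcn2 has the widest interval.

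Over the whole list of other pathway genes, 49 were listed and 48 were found in the table, of which 8 had no count in any library and 35 were tested. At an unadjusted p under 0.05 stood 8 of the 35 (22.9%), 1 higher and 7 lower in TG, beside the 18.6% of all genes given above. The groups did not overlap for 9 of the 35 (25.7%), beside 23.5% of all genes. The median log2 fold change of the 35 was -0.15. Without NTG 1, 13 of 35 stood at that threshold, beside 27.0% of all genes. Ren2 was not analysed here.

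Per length, Ace was the most abundant of the 7 RNAs and Mme the least. Mean CPM per kilobase of exon over all 6 hearts was 64.9 for Ace, 14.1 for Atp6ap2, 6.2 for Agtr1a, 4.28 for Agt, 4.27 for Hsd11b1, 1.93 for Nr3c2 and 0.438 for Mme. Ace was above Atp6ap2, Atp6ap2 above Agtr1a, Hsd11b1 above Nr3c2 and Nr3c2 above Mme in each of the 6 hearts. Agtr1a was above Agt in 5 of 6 hearts and Agt above Hsd11b1 in 3 of 6, and the ranges of both pairs overlapped, so these 3 levels were not told apart. With the length of the principal transcript in place of all exons, Hsd11b1 stood at 11.2 CPM per kilobase and moved to the third place. The deposited length of each gene covers the exons of all its transcripts.

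**Figure D4:**
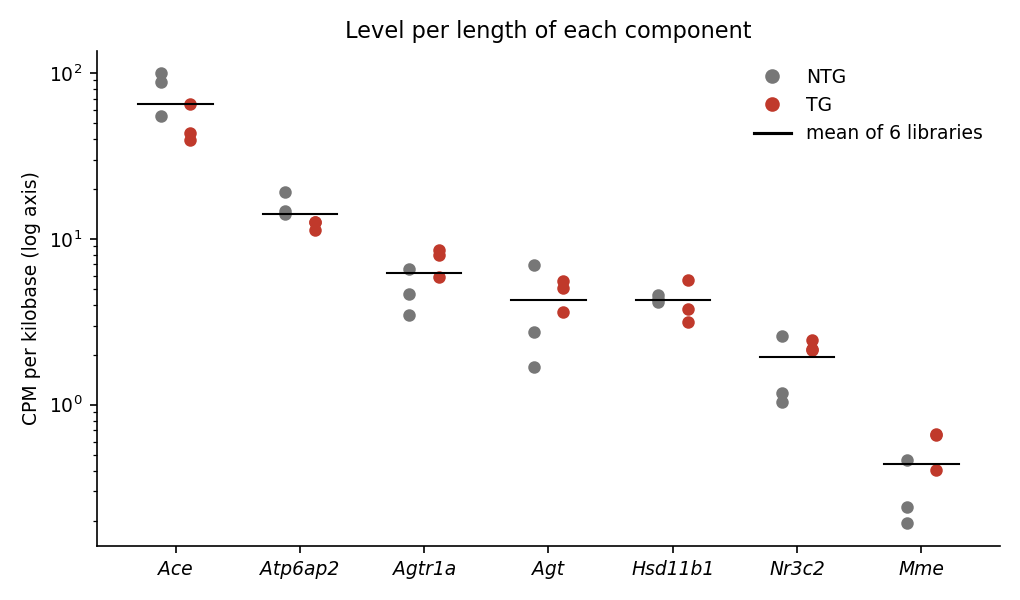
CPM per kilobase of exon of the 7 genes on a log axis, with each NTG heart in grey, each TG heart in red and the mean of all 6 hearts as a bar. Ace lies between 39.6 and 99.4, above the 11.3 to 19.2 of Atp6ap2, and Mme lies lowest at 0.193 to 0.669.

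For each of the 7 genes, the genes with the most similar profile over the 6 hearts were sought among all genes tested, by the root mean square difference of centred log2 CPM, where 0 is an identical profile. For Ace these were Amot (0.0841) and Gab2 (0.0928), and for Atp6ap2 they were Ppan (0.0415) and Snhg12 (0.0426). For Agtr1a they were Mlycd (0.0419) and Slc25a42 (0.0431), for Nr3c2 Slc24a2 (0.0656) and Dnah7b (0.105), for Mme Cabcoco1 (0.0687) and Tmem25 (0.0891), and for Agt Kcnip1 (0.117) and Ndnf (0.147). For Hsd11b1 they were Rps12-ps9 (0.0585), a pseudogene whose reads may belong to another copy, and Slc25a27 (0.0819). None of the 7 was among the nearest of another. With 6 points that share depth and tissue make-up, such likeness is a description of these libraries.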

How the data were processed

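Poly-A RNA-seq of 6 left ventricles was analysed, 3 TG and 3 NTG, grouped by the labels. The authors deposited raw counts per gene, 1 column per heart, without normalization. Their methods give StringTie and featureCounts, and the submitters' processing notes name HISAT2, DESeq2 and GRCh38. The positions, however, are those of mouse GRCm38, where 53585 of 54495 genes shared with GENCODE M21 (98.3%) and all 7 genes described were identical. Strand and treatment of multiply mapped reads are not given in the sources used here, and 27 gene names had become dates. No batch is given in the labels.

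Counts were tested in R 4.3.3 with edgeR 4.0.16 (TMM, filterByExpr, robust quasi-likelihood test, no covariate) with Benjamini-Hochberg adjustment over 14774 genes. CPM are TMM-normalized. Ratios had a pseudocount of 0.5 counts and a two-sided exact permutation test. Alternatives were RLE, upper quartile and no scaling factor, other low-count filters, DESeq2 1.42.0, limma 3.58.1 (voom), robust = FALSE, a replicate block and leaving out each library. Counting errors cover counting only. The genes described, the pathway and marker lists and the tests were chosen with earlier results of these data known. Beside the 7 genes, the text names Hint2, genes that define the system, and the 2 nearest profiles. For each role it names the gene with the highest level per length and those at an unadjusted p under 0.05. Marker genes named singly follow no such rule. Promoters are from RefSeq. Some genes of the lists are not reported here.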

Additional observations from a re-analysis of the deposited data

How the results depend on the processing

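Over 16 alternatives, the log2 fold changes of Ace, Atp6ap2, Agtr1a, Mme and Nr3c2 kept their direction. Those of Agt and Hsd11b1 did not. With 1 library left out in turn, log2 fold changes ran from -0.04 to 1.09 for Agt, -0.96 to -0.54 for Ace, 0.42 to 0.88 for Agtr1a, 0.7 to 1.4 for Mme, 0.28 to 1.03 for Nr3c2, -0.48 to -0.24 for Atp6ap2 and -0.33 to 0.12 for Hsd11b1. Agt was at -0.04 without NTG 2, Hsd11b1 at 0.01 without TG 1 and at 0.12 without TG 2, and Nr3c1 between -0.12 and 0.01, the latter without TG 1. The number of the 7 genes called by edgeR ran from 0 to 4, the number at an unadjusted p under 0.05 from 0 (without NTG 2 or TG 1) to 6 (without NTG 1), beside 10.4%, 10.6% and 27% of all genes, and the number without overlap from 1 to 6. It was 4 without TG 2 and 6 without NTG 1, beside 41.1% and 46.7% of all genes. Other pathway genes at that threshold ran from 4 (without NTG 2) to 13 (without NTG 1), with 5 without NTG 3, TG 1 or TG 3, and all genes called by edgeR from 0 to 836. Without NTG 1, Ctsd, Anpep, Lnpep, Gna11, Tsc22d3, Sgk1 and Nr3c1 kept their direction, at edgeR adjusted p of 0.0732 to 0.836. The cause of these shifts was not tested.

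DESeq2 without NTG 1 called 1773 genes and 5 of the 7, with log2 fold changes of 1.1 for Agt (adjusted p = 0.0114), -0.92 for Ace (0.00118), 0.89 for Agtr1a (0.00607), 1.41 for Mme (0.00181) and 1.04 for Nr3c2 (3.13e-05). There 6 of the 7 had no overlap, beside 46.6% of all genes, and 13 of 35 other pathway genes were at an unadjusted p under 0.05, beside 25.3%. Star (-2.43, DESeq2 adjusted p = 5.2e-07) and Lcn2 (-3.44, 0.00215) were called there too. With all libraries, 583 genes were called by DESeq2 and 232 with no low-count filter, and in each case 0 of the 7.

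Samples of the same number correlated at 0.08, 0.17 and -0.25, and samples of different numbers at -0.25 to 0.17. These ranges do not differ, so they cannot decide whether the numbers pair hearts. A fit with the replicate block called 231 genes and 0 of the 7, the smallest adjusted p being 0.065. Scaling by library size alone moved the median log2 fold change of all genes to -0.093. The level of Hsd11b1 per principal transcript length, 11.2 CPM per kilobase, was an alternative chosen after seeing the data. Mme and Agt rest on 42 and 60 counts in the lowest library, which limits their precision.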
